A study of Mus musculus with 20 samples.

Results

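Inflammasomes are protein complexes that form in the cytosol when a sensor meets a microbial product or a sign of cell damage. The 10 inflammasome and pyroptosis genes described here were chosen by name, as core parts of these complexes: the sensors Nlrp3, Nlrp1b, Nlrc4, Naip2, Naip5 and Mefv, the adaptor Pycard, the caspases Casp1 and Casp4, and the pore protein Gsdmd. The choice was made with earlier results of these data known. All 10 were among the 24421 genes of the count tables, and all 10 were among the 12132 genes that passed the filter on low counts. Their RNA was measured in mouse bone marrow-derived macrophages of 5 mice in 4 culture conditions, which gave 20 libraries. The cells were grown in medium conditioned by L929 cells, a fibroblast line that secretes CSF-1, on which macrophages depend. They were treated with LP 3M PIC, LP 3M, LP PIC or LP over 48 h. LP was read as the lipoparticle named in the series title, LP 3M and LP PIC as formulations with a single adjuvant, and LP 3M PIC as the formulation with both adjuvants, called dual below. All cells, those of LP included, thus received a formulation, and no untreated cells were compared. No strain, sex or age of the mice and no amount of adjuvant is stated in the labels.

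A sensor that has been triggered gathers the adaptor ASC, the product of Pycard, and ASC gathers pro-caspase-1, the product of Casp1. Active caspase-1 cuts the precursors of interleukin-1β and interleukin-18 and also gasdermin D, whose freed end forms pores in the plasma membrane and can lead to a lytic form of cell death called pyroptosis. Casp4 is the symbol under which the tables give the mouse gene of caspase-11, which binds bacterial lipopolysaccharide in the cytosol and cuts gasdermin D without a separate sensor. In resting macrophages the amount of NLRP3 is known to be limiting, and a first signal that raises it is called priming. RNA levels show the supply of transcripts and do not report assembly, cleavage or cell death.

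Counts in genes summed to 9.74 to 23.9 M per library, with a median of 22.8 M. A count of 3, taken as the floor of detection, equals 0.126 to 0.308 CPM, where CPM is a gene's share of the library's counts on a common scale. The shallowest library was LP of mouse 2. The 9 macrophage markers, with Lyz2 and Cd68 among the highest, were found in all conditions and summed to 12176 to 17029.5 CPM in LP 3M PIC, 21478 to 27139 CPM in LP 3M, 13876 to 20109 CPM in LP PIC and 11673 to 19097 CPM in LP. Markers of dendritic cells and lymphocytes summed to at most 0.994 and 0.182 CPM in any library. The fibroblast markers, 5 of 5 in the tables, summed to 26.5 to 106 CPM in LP 3M PIC, 29.7 to 87.1 CPM in LP 3M, 24.3 to 72.0 CPM in LP PIC and 14.9 to 63.6 CPM in LP, and their part in the results below was not tested. These markers did not move together. Dcn averaged 26.5 CPM in LP 3M PIC, against 1.33 CPM in LP. Col1a1 averaged 9.67 CPM in LP 3M PIC, against 18.7 CPM in LP, and Col1a2 10.6 CPM, against 16.7 CPM. Col3a1 and Pdgfra averaged at most 1.42 and 0.395 CPM in any condition. In such bulk libraries, fewer cells of a type and less RNA per cell cannot be told apart.

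Most of the 10 genes rose under each formulation, while Nlrp1b fell under each. Against LP, LP 3M PIC raised 7 genes and lowered 2, LP 3M raised 7 and lowered 2, and LP PIC raised 8 and lowered 1. A gene was called where its Benjamini-Hochberg adjusted p over all 12132 genes was under 0.05 in edgeR's quasi-likelihood F-test, and this meaning holds for each adjusted p below. Of all tested genes, 31.7% rose and 30.6% fell in LP 3M PIC against LP, 20.0% rose and 19.5% fell in LP 3M against LP, and 22.7% rose and 22.7% fell in LP PIC against LP. The share of the 10 genes that rose was thus above these backgrounds in each comparison, and the share that fell was below or near them. Since the genes were chosen with earlier results of these data known, the shares and medians describe them and are no test of the set. The median log2 fold change of the 10 genes was 1.01 in LP 3M PIC, 0.47 in LP 3M and 0.79 in LP PIC, each against LP, beside 0.02, −0.01 and −0.00 over all tested genes. The 3 comparisons share the LP libraries. Below, a fold change is given on the log2 scale with the SE implied by the test. Statements on single mice and on overlap use CPM of the plain library total. For the interaction alone, single mice were counted on log2 CPM scaled as in the test.

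**Figure D1:**
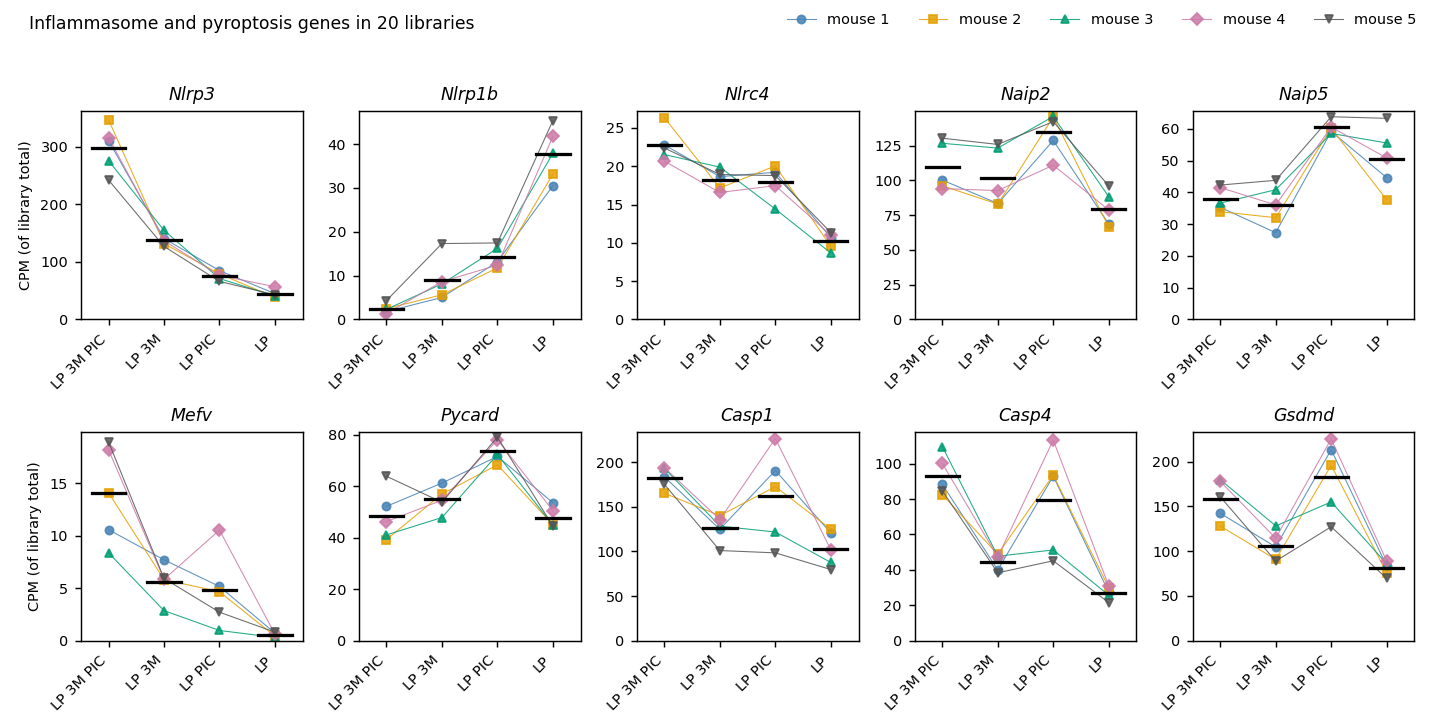
CPM (of the library total, linear axis from 0) of the 10 genes in LP 3M PIC, LP 3M, LP PIC and LP. Each marker shape and line is 1 mouse and each black bar is the mean of 5 mice. Nlrp3 lay at 242 to 347 CPM in LP 3M PIC, above every other library, whereas Nlrp1b was highest in LP, at 30.5 to 45.4 CPM.

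Nlrp3 encodes a sensor that responds to loss of potassium from the cell and to other signs of membrane or organelle damage. The annotation (GENCODE M21) places it on GRCm38 at chr11:59541568-59566956, plus strand. In mice 1 to 5 it stood at 310.4, 347, 276, 316 and 242 CPM in LP 3M PIC and at 140.5, 132, 155, 137 and 127 CPM in LP 3M. It stood at 84.9, 79.0, 71.0, 76.4 and 66.1 CPM in LP PIC and at 44.8, 38.4, 40.8, 57.0 and 42.8 CPM in LP. The 4 conditions did not overlap, and in every mouse the order was LP 3M PIC, LP 3M, LP PIC, LP from high to low. Nlrp3 rose by 2.85 ± 0.12 in LP 3M PIC against LP (adjusted p = 1.90e-12), which is a 7.20-fold difference. The rise was 1.73 ± 0.11 in LP 3M (adjusted p = 2.00e-09) and 0.79 ± 0.11 in LP PIC (adjusted p = 1.34e-05), both against LP. LP 3M PIC exceeded LP 3M by 1.12 ± 0.11 (adjusted p = 1.07e-06) and LP PIC by 2.05 ± 0.12 (adjusted p = 1.83e-09). Ordered by p, Nlrp3 ranked 1 of the 12132 genes for LP 3M PIC against LP PIC and 5 for LP 3M PIC against LP.

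Nlrp1b, whose product senses proteases such as anthrax lethal factor, went the other way. It lies on GRCm38 at chr11:71153102-71230733, minus strand. In mice 1 to 5 it stood at 1.81, 2.48, 2.31, 1.36 and 4.31 CPM in LP 3M PIC and at 5.03, 5.63, 8.13, 8.63 and 17.3 CPM in LP 3M. It stood at 13.2, 11.7, 16.2, 12.4 and 17.5 CPM in LP PIC and at 30.5, 33.2, 37.9, 41.8 and 45.4 CPM in LP. All 15 libraries with an adjuvant lay below all 5 of LP, and all 5 of LP 3M PIC lay below all of the single formulations. Nlrp1b fell by 3.82 ± 0.32 in LP 3M PIC (adjusted p = 1.02e-08), by 1.98 ± 0.28 in LP 3M (adjusted p = 2.87e-05) and by 1.37 ± 0.28 in LP PIC (adjusted p = 5.21e-04), each against LP. It was lower in LP 3M PIC than in LP 3M (−1.84 ± 0.31, adjusted p = 1.43e-04) and than in LP PIC (−2.45 ± 0.31, adjusted p = 9.46e-06).

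Among the LP 3M libraries, that of mouse 5 had the highest Nlrp1b, and it also had the lowest Casp1, Casp4 and Gsdmd of its condition. The same library held 3.58 CPM of Il1b, against 70.9 to 309.5 CPM in the other 4 of LP 3M. Between LP 3M and LP PIC, Nlrp1b differed by −0.61 ± 0.28, which did not pass the test (adjusted p = 0.0808), with 5 of 5 mice lower in LP 3M. Without the LP 3M library of mouse 5 the difference was −0.98 (adjusted p = 0.00224), without mouse 5 altogether −0.89 (adjusted p = 0.00127), and with the mouse as a block −0.70 (adjusted p = 0.00347). Over all 15 alternatives its adjusted p ran from 0.00127 to 0.234.

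NAIP proteins bind parts of bacterial flagellin and secretion systems, and then trigger NLRC4, the product of Nlrc4. In mice, NAIP5 binds flagellin and NAIP2 the inner rod of type 3 secretion systems. Nlrc4 lies on GRCm38 at chr17:74425438-74459142, minus strand. Naip2 (chr13:100144063-100202092, minus strand) and Naip5 (chr13:100211739-100246323, minus strand) are neighbours with 9646 bases between them.

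Nlrc4 stood at 20.7 to 26.3 CPM in LP 3M PIC, 16.6 to 19.9 CPM in LP 3M, 14.4 to 20.0 CPM in LP PIC and 8.67 to 11.3 CPM in LP. The 5 LP libraries were the lowest 5, those of LP 3M PIC the highest 5, and the single formulations overlapped each other. Nlrc4 rose by 1.26 ± 0.10 in LP 3M PIC (adjusted p = 2.13e-09), by 0.94 ± 0.10 in LP 3M (adjusted p = 4.76e-07) and by 0.85 ± 0.10 in LP PIC (adjusted p = 7.43e-07), each against LP. LP 3M PIC was above LP 3M by 0.32 ± 0.09 (adjusted p = 0.00910) and above LP PIC by 0.41 ± 0.09 (adjusted p = 0.00154). The difference from LP 3M was no longer called without mouse 2 (adjusted p = 0.0743, range over the alternatives 0.00373 to 0.0743).

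Naip2 stood at 94.1 to 130.3 CPM in LP 3M PIC, 82.9 to 126 CPM in LP 3M, 111 to 146 CPM in LP PIC and 66.5 to 96.0 CPM in LP. Its highest level was thus under LP PIC, where all 5 libraries lay above all 5 of LP, and the other conditions overlapped LP. Naip2 rose by 0.56 ± 0.14 in LP 3M PIC (adjusted p = 0.00123), by 0.45 ± 0.13 in LP 3M (adjusted p = 0.0117) and by 0.80 ± 0.14 in LP PIC (adjusted p = 9.27e-05), each against LP. Between LP 3M PIC and LP PIC it differed by −0.23 ± 0.13, with 5 of 5 mice lower under LP 3M PIC. That did not pass the test (adjusted p = 0.170) but did with the mouse as a block (adjusted p = 0.0133, range over the alternatives 0.0133 to 0.357). It was lower in LP 3M than in LP PIC (−0.34 ± 0.13, adjusted p = 0.0435), a call that was lost without mouse 1 (adjusted p = 0.138), mouse 2 (0.164) or mouse 4 (0.0719) and ran from 7.55e-04 to 0.164 over the alternatives.

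Naip5 stood at 33.9 to 42.3 CPM in LP 3M PIC, 27.3 to 43.8 CPM in LP 3M, 58.5 to 63.8 CPM in LP PIC and 37.7 to 63.3 CPM in LP. The LP range overlapped that of every other condition, while all LP PIC libraries lay above all of LP 3M PIC and LP 3M. Against LP, Naip5 fell by 0.31 ± 0.12 in LP 3M PIC (adjusted p = 0.0370) and by 0.39 ± 0.12 in LP 3M (adjusted p = 0.0175), with 5 of 5 mice lower in each. In LP PIC it differed from LP by 0.30 ± 0.12, higher in 5 of 5 mice, which did not pass the test (adjusted p = 0.0518).

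All 3 of these comparisons were close to the threshold. The fall in LP 3M PIC was not called without mouse 3 (adjusted p = 0.158), mouse 4 (0.0740) or mouse 5 (0.0956), without the LP 3M PIC library of mouse 3 (0.0663), or with only both conditions in the fit (0.0571), and its adjusted p ran from 0.00489 to 0.158. The fall in LP 3M was lost without mouse 1 (adjusted p = 0.0578) or mouse 4 (0.0682) and with only both conditions fitted (0.0648), with a range of 0.00205 to 0.0682. The difference in LP PIC was called with the mouse as a block (adjusted p = 0.00552), without mouse 5 (0.0280), without the LP 3M library of mouse 5 (0.0448) and by DESeq2 (0.0460), with a range of 0.00552 to 0.158. Between the formulations Naip5 was lower in LP 3M PIC than in LP PIC (−0.60 ± 0.12, adjusted p = 6.30e-04) and lower in LP 3M than in LP PIC (−0.68 ± 0.12, adjusted p = 1.72e-04), and both calls held under all 15 alternatives. Of the 75-base windows along its exons, 23.8% in Naip5 and 10.7% in Naip2 also occur in other Naip genes, so that the counts of both are uncertain.

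Mefv encodes pyrin, a sensor of toxins that inactivate the GTPase RhoA. It lies on GRCm38 at chr16:3707218-3718097, minus strand. In mice 1 to 5 it stood at 10.6, 14.1, 8.37, 18.2 and 19.0 CPM in LP 3M PIC and at 7.71, 5.81, 2.86, 5.84 and 5.93 CPM in LP 3M. It stood at 5.16, 4.66, 0.964, 10.5 and 2.71 CPM in LP PIC and at 0.715, 0.411, 0.305, 0.610 and 0.804 CPM in LP. Every library with an adjuvant lay above every LP library, where the gene was close to the floor of detection. Mefv rose by 4.69 ± 0.52 in LP 3M PIC (95% interval 3.60 to 5.77, adjusted p = 3.30e-07), by 3.37 ± 0.51 in LP 3M (adjusted p = 5.23e-05) and by 3.08 ± 0.51 in LP PIC (adjusted p = 8.54e-05), each against LP. LP 3M PIC was above LP 3M by 1.32 ± 0.41 (adjusted p = 0.0153) and above LP PIC by 1.60 ± 0.42 (adjusted p = 0.00440), with 5 of 5 mice higher in each. The difference from LP 3M was not called without mouse 2 (adjusted p = 0.0524) or mouse 5 (0.0626, range 0.00116 to 0.0626).

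Mefv is known as a gene of granulocytes and monocytes. Of the 10 neutrophil markers, 9 were in the tables, and they summed to 4.86 to 537 CPM in LP 3M PIC, 4.09 to 17.3 CPM in LP 3M, 2.94 to 5.76 CPM in LP PIC and 1.43 to 3.80 CPM in LP. Most of this was S100a8, at 3.35 to 536 CPM in LP 3M PIC, against 1.01 to 2.86 CPM in LP. Camp reached 2.05 CPM, S100a9, Ngp, Mpo, Ltf, Cxcr2 and Elane stayed at or under 0.838 CPM in every library, and Retnlg was at 0 in all 20.

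Pycard encodes ASC, the adaptor between sensors and caspase-1. It lies on GRCm38 at chr7:127989708-127993867, minus strand. In mice 1 to 5 it stood at 52.2, 39.2, 41.1, 46.2 and 63.9 CPM in LP 3M PIC and at 61.2, 57.0, 47.8, 54.5 and 53.8 CPM in LP 3M. It stood at 71.6, 68.3, 72.3, 78.0 and 79.0 CPM in LP PIC and at 53.6, 45.1, 44.8, 50.5 and 44.5 CPM in LP. All 5 LP PIC libraries lay above the other 15, and LP 3M PIC overlapped both LP 3M and LP. Against LP, Pycard rose by 0.67 ± 0.10 in LP PIC (adjusted p = 3.73e-05) and by 0.31 ± 0.10 in LP 3M (adjusted p = 0.0235). In LP 3M PIC it differed from LP by 0.13 ± 0.10 (95% interval −0.09 to 0.35, adjusted p = 0.276), which did not pass the test, with 1 mouse higher and 4 lower by plain CPM. It was lower in LP 3M PIC than in LP PIC (−0.54 ± 0.10, adjusted p = 4.26e-04) and lower in LP 3M than in LP PIC (−0.36 ± 0.10, adjusted p = 0.00799), each in 5 of 5 mice.

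The rise of Pycard in LP 3M was the least stable of its calls. It was lost with plain library totals in place of TMM scaling (0.20, adjusted p = 0.136), a setting under which the median of all genes for LP 3M against LP lay at −0.12, beside −0.01 with TMM. It was also lost without mouse 1 (adjusted p = 0.0663), mouse 2 (0.0770), mouse 4 (0.0662) or the LP library of mouse 2 (0.0552), with a range of 0.00996 to 0.136. Between LP 3M PIC and LP 3M it differed by −0.18 ± 0.10 (adjusted p = 0.185), and without mouse 5, whose LP 3M PIC library was the highest of that condition, by −0.30 (adjusted p = 0.0274, range 0.0274 to 0.518).

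Casp1 and Casp4 lie side by side on the plus strand of GRCm38, at chr9:5298517-5307265 and chr9:5308828-5336783, with 1562 bases between them. The windows from 250 bases before to 50 bases after their start sites are shown because these 2 neighbours rose together in LP 3M PIC and LP PIC, and that of Nlrp3 because Nlrp3 had the smallest p of the 10 genes in LP 3M PIC against LP. The sequences are those of RefSeq on GRCm38.p6, 5′ to 3′ on the plus strand. Capitals mark matches to an NF-kB type motif.
Casp4, chr9:5308599-5308898: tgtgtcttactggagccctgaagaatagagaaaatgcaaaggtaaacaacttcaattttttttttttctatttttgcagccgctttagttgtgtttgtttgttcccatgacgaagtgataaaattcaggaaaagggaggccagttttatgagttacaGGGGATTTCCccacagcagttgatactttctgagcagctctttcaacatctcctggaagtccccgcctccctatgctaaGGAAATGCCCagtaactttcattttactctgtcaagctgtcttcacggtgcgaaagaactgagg
Casp1, chr9:5298267-5298566: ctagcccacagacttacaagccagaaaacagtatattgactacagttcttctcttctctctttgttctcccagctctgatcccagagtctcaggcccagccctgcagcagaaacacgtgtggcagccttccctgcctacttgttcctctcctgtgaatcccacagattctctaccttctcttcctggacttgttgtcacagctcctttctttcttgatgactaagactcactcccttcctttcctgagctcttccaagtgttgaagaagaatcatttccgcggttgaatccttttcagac
Nlrp3, chr11:59541319-59541618: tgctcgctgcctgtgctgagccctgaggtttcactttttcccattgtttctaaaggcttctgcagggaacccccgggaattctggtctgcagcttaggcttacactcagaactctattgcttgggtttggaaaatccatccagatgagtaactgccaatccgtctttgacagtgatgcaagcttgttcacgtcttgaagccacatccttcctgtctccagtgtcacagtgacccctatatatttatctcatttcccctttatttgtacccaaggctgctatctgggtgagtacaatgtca

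RefSeq windows were at hand for 9 of the 10 genes, 12 windows in all. They were searched on both strands for 5 motif types: NF-kB (GGG, any 2 bases, TTTCC), ISRE (GAAA, any 2 bases, GAAA), GAS (TTCNNNGAA), AP-1 (TGANTCA) and the PU.1-IRF composite (GGAA, any 2 bases, GAAA). The Casp4 windows alone held a match, a pair of NF-kB type, GGGGATTTCC from 93 bases before the start and GGAAATGCCC from 14 bases before it, which matches the motif on the minus strand. An NF-kB type match was present in 1.63% of all 32851 windows of the table, an ISRE type in 3.44%, a GAS type in 8.30%, an AP-1 type in 7.81% and a PU.1-IRF type in 2.72%. A match is a stretch of letters and not a measured binding site, and other regulatory regions were not searched.

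Casp4 rose under each formulation. Its estimates exceeded those of Casp1 in each comparison with LP, but the difference between the genes was not tested. In mice 1 to 5, Casp4 stood at 88.4, 82.5, 109.7, 100.1 and 84.7 CPM in LP 3M PIC and at 40.0, 48.8, 47.7, 47.3 and 38.3 CPM in LP 3M. It stood at 92.9, 93.5, 51.2, 113 and 45.1 CPM in LP PIC and at 27.4, 29.9, 25.6, 31.0 and 21.5 CPM in LP. Every library with an adjuvant lay above every LP library, and LP PIC spanned a wide range that overlapped both LP 3M PIC and LP 3M. Casp4 rose by 1.90 ± 0.20 in LP 3M PIC (adjusted p = 2.27e-07), by 0.83 ± 0.20 in LP 3M (adjusted p = 0.00301) and by 1.60 ± 0.20 in LP PIC (adjusted p = 4.15e-06), each against LP. It was higher in LP 3M PIC than in LP 3M (1.07 ± 0.20, adjusted p = 3.28e-04). From LP PIC it differed by 0.30 ± 0.19 (95% interval −0.11 to 0.71, adjusted p = 0.220), which did not pass the test. These calls were the same under all 15 alternatives.

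Casp1, the gene of the caspase that the canonical complexes activate, stood in mice 1 to 5 at 184, 165, 193, 194 and 175 CPM in LP 3M PIC and at 125, 140.2, 128, 136 and 101 CPM in LP 3M. It stood at 191, 173, 122, 227 and 98.5 CPM in LP PIC and at 121, 125, 87.7, 102 and 79.8 CPM in LP. LP 3M PIC lay above all LP and all LP 3M libraries, while LP 3M and LP PIC each overlapped LP. Casp1 rose by 0.94 ± 0.18 in LP 3M PIC (adjusted p = 1.48e-04) and by 0.70 ± 0.18 in LP PIC (adjusted p = 0.00330), both against LP. In LP 3M it differed from LP by 0.41 ± 0.18, higher in 5 of 5 mice, which did not pass the test (adjusted p = 0.0761). That difference was called with the mouse as a block (adjusted p = 0.0162), with only both conditions fitted (0.0273), without mouse 5 (0.0380) and without its LP 3M library (0.0401), over a range of 0.0162 to 0.208. LP 3M PIC was above LP 3M by 0.53 ± 0.18 (adjusted p = 0.0214). That call was lost without mouse 1 (adjusted p = 0.0628), mouse 3 (0.0537) or the LP 3M library of mouse 5 (0.0599), over a range of 0.00163 to 0.0628.

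Gsdmd encodes gasdermin D, the pore protein that both caspases cut. It lies on GRCm38 at chr15:75862327-75867408, plus strand. In mice 1 to 5 it stood at 142, 128, 179.9, 178 and 161 CPM in LP 3M PIC and at 105, 90.8, 128, 115 and 88.9 CPM in LP 3M. It stood at 213, 196, 155, 225 and 127 CPM in LP PIC and at 83.6, 75.9, 85.9, 89.0 and 69.5 CPM in LP. LP 3M PIC and LP PIC lay above all LP libraries and overlapped each other, and in LP 3M the library of mouse 5 fell within the LP range. Gsdmd rose by 1.07 ± 0.15 in LP 3M PIC (adjusted p = 3.82e-06), by 0.49 ± 0.15 in LP 3M (adjusted p = 0.0118) and by 1.22 ± 0.15 in LP PIC (adjusted p = 1.97e-06), each against LP. It was higher in LP 3M PIC than in LP 3M (0.58 ± 0.15, adjusted p = 0.00367) and differed from LP PIC by −0.15 ± 0.15 (95% interval −0.45 to 0.15, adjusted p = 0.418), which did not pass the test.

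The LP PIC libraries of mice 3 and 5 were the lowest pair of that condition for Casp1, Casp4, Gsdmd and Mefv. In the same libraries Gbp2, a guanylate-binding protein gene, stood at 401 and 274 CPM, against 639.6 to 837 CPM in the other 3 of LP PIC. Gbp5 stood at 100.04 and 54.6 CPM there, against 146 to 238 CPM in the other 3. The rises of these 4 genes in LP PIC against LP were called without mouse 3 and without mouse 5.

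**Figure D2:**
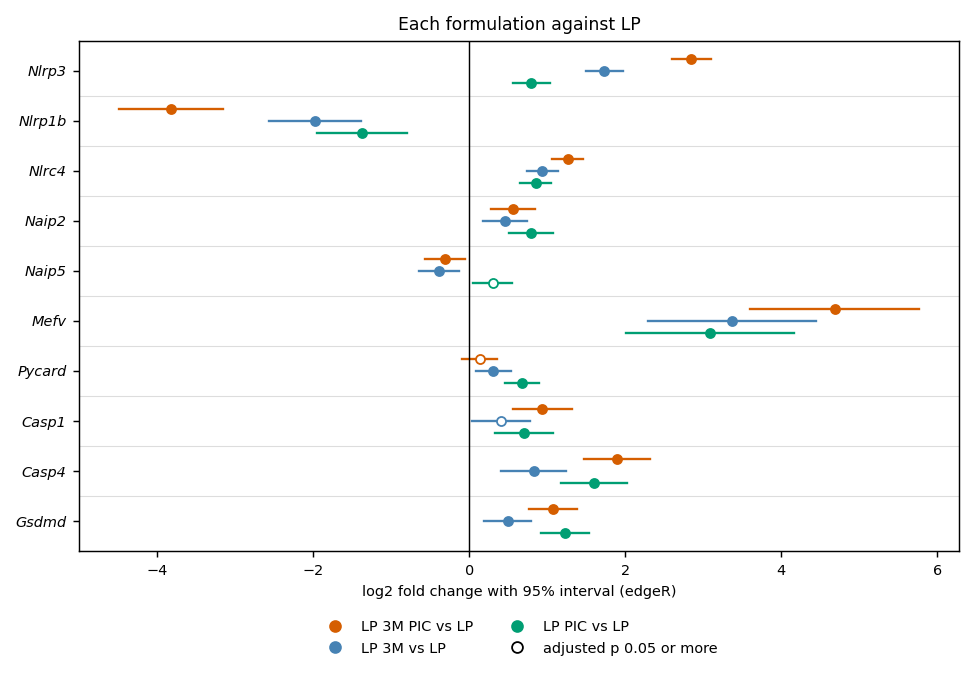
Log2 fold change with its 95% interval (edgeR) of the 10 genes in LP 3M PIC, LP 3M and LP PIC, each against LP. Filled circles have an adjusted p under 0.05 and open ones 0.05 or more. Nlrp1b is the gene below 0 throughout, at −3.82, −1.98 and −1.37, and Mefv has the largest rises with the widest intervals.

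Set against the single formulations, the dual one had higher Nlrp3, Nlrc4 and Mefv and lower Nlrp1b than either. Against LP 3M, 6 of the 10 genes were higher in LP 3M PIC and 1 was lower, beside 20.5% of all tested genes higher and 21.0% lower. Those higher were Nlrp3, Nlrc4, Mefv, Casp1, Casp4 and Gsdmd, and the median of the 10 was 0.43, beside 0.01 over all tested genes. Against LP PIC, 3 were higher and 3 lower in LP 3M PIC, beside 23.1% of all tested genes higher and 21.4% lower. Each share was thus close to its background, with a median of 0.04 for the 10 genes, beside 0.00 for all tested genes. Nlrp1b, Naip5 and Pycard were the genes lower in LP 3M PIC than in LP PIC, while Naip2, Casp1, Casp4 and Gsdmd were not called. These comparisons, and the interaction below, take equal amounts of each adjuvant in the dual and single formulations for granted, which could not be checked.

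Between the single formulations, Nlrp3 was the gene that was higher in LP 3M than in LP PIC (0.94 ± 0.11, adjusted p = 2.66e-06). Lower in LP 3M than in LP PIC were Naip2, Naip5, Pycard, Casp4 (−0.77 ± 0.20, adjusted p = 0.00364) and Gsdmd (−0.73 ± 0.15, adjusted p = 4.81e-04). The 1 gene higher and 5 lower compare with 24.4% and 22.7% of all tested genes. The median of the 10 was −0.35, beside −0.01 over all tested genes. Nlrc4, Casp1 and Mefv differed by 0.09 ± 0.09, −0.30 ± 0.18 and 0.29 ± 0.42 and did not pass the test (adjusted p = 0.456, 0.177 and 0.596), and Nlrp1b is given above.

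The interaction asks whether the dual formulation did more or less than the sum of both single effects on the log2 scale. It was called for 3 of the 10 genes, each time negative and with all 5 mice below 0. The values were −0.85 ± 0.15 for Pycard (adjusted p = 0.00210), −0.68 ± 0.19 for Naip2 (adjusted p = 0.0316) and −0.53 ± 0.13 for Nlrc4 (adjusted p = 0.0191). Of all tested genes, 3.82% had a called positive and 4.62% a called negative interaction, and the median was 0.00, beside −0.53 for the 10 genes. For Nlrp3 it was 0.32 ± 0.16 (95% interval −0.01 to 0.65, adjusted p = 0.224), higher in 5 of 5 mice, which did not pass the test. Nor did that of Nlrp1b, at −0.47 ± 0.41 (95% interval −1.33 to 0.39, adjusted p = 0.527), or that of Casp4, at −0.53 ± 0.28 (95% interval −1.11 to 0.06, adjusted p = 0.259). Casp1 and Naip5 had −0.17 ± 0.25 and −0.22 ± 0.17 and did not pass the test (adjusted p = 0.733 and 0.473).

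Gsdmd had an interaction of −0.64 ± 0.21 (adjusted p = 0.0601) and Mefv of −1.77 ± 0.65 (adjusted p = 0.106), and neither passed the test. Both were called with the mouse as a block (adjusted p = 0.0137 for Gsdmd and 0.0353 for Mefv) and by DESeq2 (0.0324 and 0.0378). Gsdmd was also called without mouse 5 (adjusted p = 0.0195) or its LP 3M library (0.0402), and Mefv without mouse 3 (0.0330). Over the 14 alternatives the adjusted p of Gsdmd ran from 0.0137 to 0.279 and that of Mefv from 0.0330 to 0.334. The call for Pycard held under all 14. That for Nlrc4 was lost without mouse 1 (adjusted p = 0.140) or mouse 4 (0.0755, range 0.00796 to 0.140). That for Naip2 was lost without mouse 1 (0.138), 2 (0.115), 3 (0.0673) or 4 (0.104), without the LP 3M library of mouse 5 (0.0517) and without the LP library of mouse 2 (0.0614, range 5.73e-04 to 0.138).

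**Figure D3:**
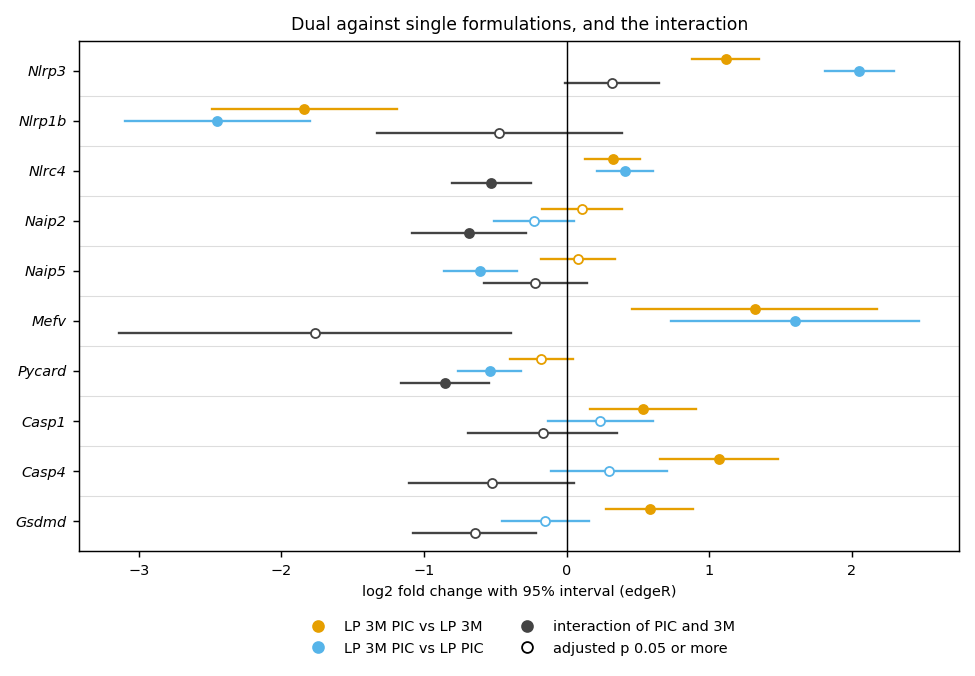
Log2 fold change with its 95% interval (edgeR) of the 10 genes in LP 3M PIC against LP 3M and against LP PIC, with the interaction of PIC and 3M on the same axis. Filled circles have an adjusted p under 0.05. Nlrp3 stands 2.05 above LP PIC and 1.12 above LP 3M, and the filled interaction values are those of Nlrc4, Naip2 and Pycard.

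Levels can be compared between genes only per transcript length. Per kilobase of the longest coding transcript, the order in LP 3M PIC was Casp1 (122 CPM per kb), Gsdmd (88.1), Nlrp3 (74.2), Casp4 (64.9), Naip2 (22.7), Naip5 (7.28), Nlrc4 (4.81), Mefv (4.54) and Nlrp1b (0.594). The 5 mice overlapped between Gsdmd and Nlrp3, between Nlrp3 and Casp4 and between Nlrc4 and Mefv. In LP the order was Casp1 (68.8 CPM per kb), Gsdmd (45.1), Casp4 (18.9), Naip2 (16.5), Nlrp3 (11.1), Naip5 (9.68), Nlrp1b (9.13), Nlrc4 (2.17) and Mefv (0.184), and the neighbours from Casp4 down to Nlrp1b overlapped. By this length Nlrp3 stood first among the sensors in LP 3M PIC, whereas in LP it lay between Naip2 and Naip5 and overlapped both, and Nlrp1b stood last in LP 3M PIC and above Nlrc4 and Mefv in LP. In LP 3M the order of the first 7 was that of LP 3M PIC. Casp1 and Gsdmd overlapped in LP 3M and in LP PIC. In LP PIC, Nlrp3 stood at 18.8 CPM per kb, below Naip2 at 27.9. The order depends on the transcript chosen, since coding transcripts ran from 0.676 to 4.02 kb for Nlrp3, from 0.361 to 1.435 kb for Casp4 and from 0.415 to 1.79 kb for Gsdmd. The places of these 3 genes relative to each other, to Casp1 and to Naip2 are therefore uncertain. Pycard, at 0.493 to 3.80 kb, was left out of the order. In LP it stood at 96.7 CPM per kb of its shortest coding transcript, above Casp1, and at 12.6 CPM per kb of its longest.

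**Figure D4:**
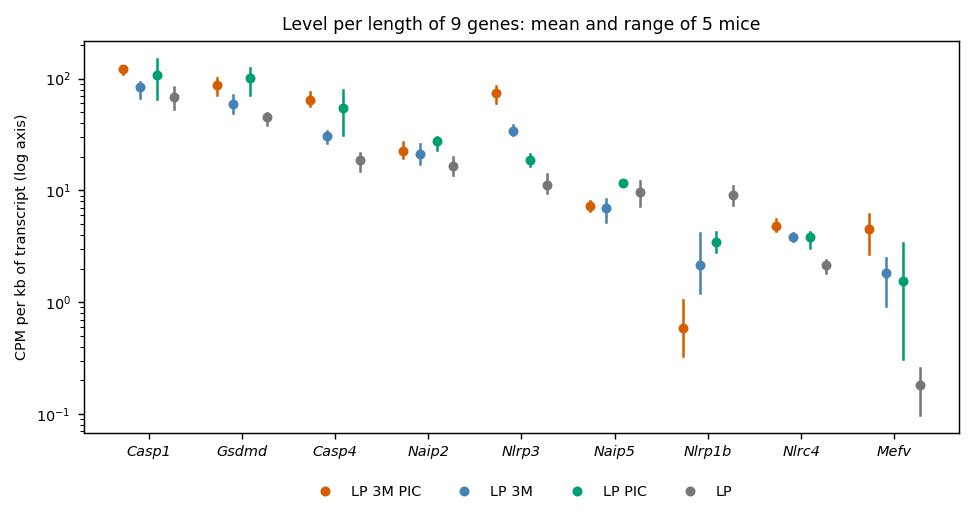
CPM per kb of the longest coding transcript (log axis) of 9 genes, ordered by their level in LP. Circles are means and vertical lines the range of 5 mice in LP 3M PIC, LP 3M, LP PIC and LP. Among these 9 genes Casp1 has the highest mean in all 4 conditions, with a range that overlaps that of Gsdmd in LP 3M and LP PIC. Nlrp1b drops to 0.594 CPM per kb in LP 3M PIC, against 9.13 CPM per kb in LP.

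The genes whose pattern over the 20 libraries was most like that of each of the 10 were found by the root mean square difference of log2 CPM after each gene was centred on its own mean. For Nlrp3 these were Lcp2 (0.27) and Tgfbi (0.28), where the value in parentheses is that difference in log2 units and the median over all tested genes was 1.12 for Nlrp3. That median grows with the gene's own variation, and was 1.49 for Nlrp1b, 1.796 for Mefv, 0.84 for Casp4 and 0.43 (Pycard) to 0.62 (Gsdmd) for the other 6. Nlrp1b was closest to Cyp27a1 (0.31) and Mfsd6 (0.41), Nlrc4 to Tmem170b (0.15) and Snx10 (0.17), and Mefv to Acp5 (0.55) and Camp (0.63). Casp4 was closest to Zeb1 (0.20) and Mlkl (0.23), Casp1 to Immp1l (0.18) and Cd80 (0.18), and Gsdmd to Tor3a (0.13) and Usb1 (0.16). Naip2 was closest to Traf3 (0.14) and Plekha1 (0.17), Naip5 to Unk (0.14) and Pts (0.14), and Pycard to Cox8a (0.15) and Mrpl42 (0.15). Among the 10 genes themselves, Casp1 and Gsdmd were each other's nearest, at 0.28, and Nlrp1b stood farthest from any other, at 1.32 from Naip5.

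Beyond the 10 genes, 49 other genes of the pathway were in the tables and 42 were tested. They too were chosen with earlier results of these data known, so that their shares are a description only. In LP 3M PIC against LP, 23 of the 42 rose and 9 fell, beside 31.7% and 30.6% of all tested genes, with a median of 0.48. In LP 3M against LP, 16 rose and 7 fell, beside 20.0% and 19.5% of all tested genes, with a median of 0.12. In LP PIC against LP, 23 rose and 6 fell, beside 22.7% and 22.7% of all tested genes, with a median of 0.51. The named genes below are those with the smallest p of each role in LP 3M PIC against LP. Also named is the called gene that went against the direction of most called genes of its role.

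The largest rises were those of cytokine genes. Il1b, the gene of the interleukin-1β precursor that caspase-1 cuts, stood in mice 1 to 5 at 1189, 1994, 572, 1180.1 and 119 CPM in LP 3M PIC and at 309.5, 155, 70.9, 73.5 and 3.58 CPM in LP 3M. It stood at 8.59, 8.08, 4.56, 3.66 and 1.67 CPM in LP PIC and at 0.294, 0.411, 0.784, 0.610 and 0.179 CPM in LP. In every mouse the order was that of Nlrp3, but mouse 5 was lowest in every condition, and its LP 3M library fell within the LP PIC range. Il1b rose by 11.20 ± 1.20 in LP 3M PIC (adjusted p = 2.35e-07), by 8.16 ± 1.11 in LP 3M (adjusted p = 1.72e-05) and by 3.55 ± 1.09 in LP PIC (adjusted p = 0.0122), each against LP. Il1a, whose product needs no cleavage by caspase-1, rose by 10.99 ± 1.00 in LP 3M PIC against LP (adjusted p = 3.29e-08), at 283 to 1969 CPM, against 0.103 to 1.83 CPM in LP. Most LP values of both genes were near the floor of detection, so that the sizes of these folds are rough (95% interval of Il1b 8.68 to 13.72).

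Il18, the gene of the other caspase-1 substrate, averaged 5.01 ± 0.936 CPM in LP 3M PIC, 2.16 ± 0.838 CPM in LP 3M, 8.67 ± 2.20 CPM in LP PIC and 5.34 ± 0.782 CPM in LP (SD, n = 5). Against LP it fell by 1.21 ± 0.24 in LP 3M (adjusted p = 4.91e-04), rose by 0.74 ± 0.22 in LP PIC (adjusted p = 0.0109) and differed by 0.01 ± 0.23 in LP 3M PIC (adjusted p = 0.979). Il18 was chosen for description after its values were seen. Il18bp, the gene of the protein that binds and blocks interleukin-18, had its highest mean under LP PIC. Against LP it rose by 2.32 ± 0.39 in LP 3M PIC (adjusted p = 4.37e-05) and by 3.30 ± 0.40 in LP PIC (adjusted p = 2.65e-06). Il18bp averaged 61.5 ± 16.9 CPM in LP 3M PIC and 16.3 ± 8.80 CPM in LP 3M (SD, n = 5). Its averages were 127 ± 52.9 CPM in LP PIC and 13.0 ± 6.35 CPM in LP.

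Of the 9 other cytosolic sensors tested, 5 rose and 1 fell in LP 3M PIC against LP, beside 31.7% and 30.6% of all tested genes. Nod1 and Nod2, sensors of bacterial cell wall fragments that signal to NF-kB, rose by 2.65 ± 0.23 and 2.79 ± 0.30 (adjusted p = 2.16e-08 and 2.21e-07). Nlrp10 fell by 4.14 ± 0.49 (95% interval −5.18 to −3.11, adjusted p = 6.31e-07), at 0.0427 to 0.232 CPM in LP 3M PIC, against 1.70 to 3.70 CPM in LP. Of its 5 LP 3M PIC values, 3 rested on 1 count each, under the floor of 3 counts, and the highest on 5 counts, so that the size of this fold is rough.

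Of the 5 genes of pores and membrane rupture tested, 4 rose and none fell in LP 3M PIC against LP, beside the same 31.7% and 30.6%. Mlkl, the pore protein of necroptosis, rose by 1.86 ± 0.19 (adjusted p = 1.40e-07), and Ninj1, whose product ruptures the membrane late in lytic death, by 0.84 ± 0.11 (adjusted p = 2.27e-06). Chmp4b, part of the machinery that repairs membranes, rose by 0.47 ± 0.10 (adjusted p = 4.72e-04).

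Among 13 cofactors, 6 rose and 4 fell in LP 3M PIC against LP, and the share that fell was near the background of 30.6%, beside 31.7% of all tested genes that rose. The guanylate-binding protein genes Gbp2, Gbp5 and Gbp3, whose products coat bacteria and promote caspase-11 activation, rose by 4.73 ± 0.43, 6.27 ± 0.63 and 4.32 ± 0.43 (adjusted p = 3.37e-08, 9.98e-08 and 1.07e-07). Nek7, which encodes a kinase that NLRP3 needs for assembly, fell by 0.61 ± 0.08 (adjusted p = 1.23e-06), to 63.9 ± 5.50 CPM in LP 3M PIC, against 106 ± 11.6 CPM in LP (SD, n = 5). It also fell in LP 3M (−0.30 ± 0.08, adjusted p = 0.00419) and in LP PIC (−0.40 ± 0.08, adjusted p = 3.11e-04).

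Of 7 restraining genes tested, 2 rose and 3 fell in LP 3M PIC against LP, which for so few genes is near the background of 31.7% and 30.6%. Serpinb1a, the gene of an inhibitor of neutrophil proteases and of caspase-1 activation, fell by 3.78 ± 0.72 (adjusted p = 1.59e-04), at 0.128 to 0.513 CPM in LP 3M PIC, against 0.715 to 8.93 CPM in LP. Its LP 3M PIC value was at or under the floor of detection in 3 of 5 mice. Tnfaip3, which encodes the NF-kB inhibitor A20, rose by 3.27 ± 0.15 (adjusted p = 3.58e-12), and Pkn2, which encodes a kinase that keeps pyrin inactive, by 0.48 ± 0.08 (adjusted p = 1.71e-05).

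Between the formulations, 19 of the 42 pathway genes were higher and 6 lower in LP 3M PIC than in LP 3M, beside 20.5% and 21.0% of all tested genes. Against LP PIC, 12 were higher and 9 lower in LP 3M PIC, near the background of 23.1% and 21.4%, and without mouse 1 the count was 7 higher and 6 lower. In LP 3M, 6 were higher and 17 lower than in LP PIC, beside 24.4% and 22.7% of all tested genes. The interaction was called for 3 of the 42, positive for Serpinb1a and negative for Gbp2 and Naip1, a share near the 3.82% positive and 4.62% negative of all tested genes. DESeq2 called 6 and the fit with the mouse as a block 7. None of these 3 was called without mouse 1, without mouse 2 or without mouse 4. Serpinb1a averaged 0.147 CPM in LP PIC, 0.263 CPM in LP 3M and 0.256 CPM in LP 3M PIC, against 4.15 CPM in LP. Its values with an adjuvant were thus near the floor of detection. A further fall under the dual formulation could hardly be measured, so that the sign and size of its interaction are uncertain.

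**Figure D5:**
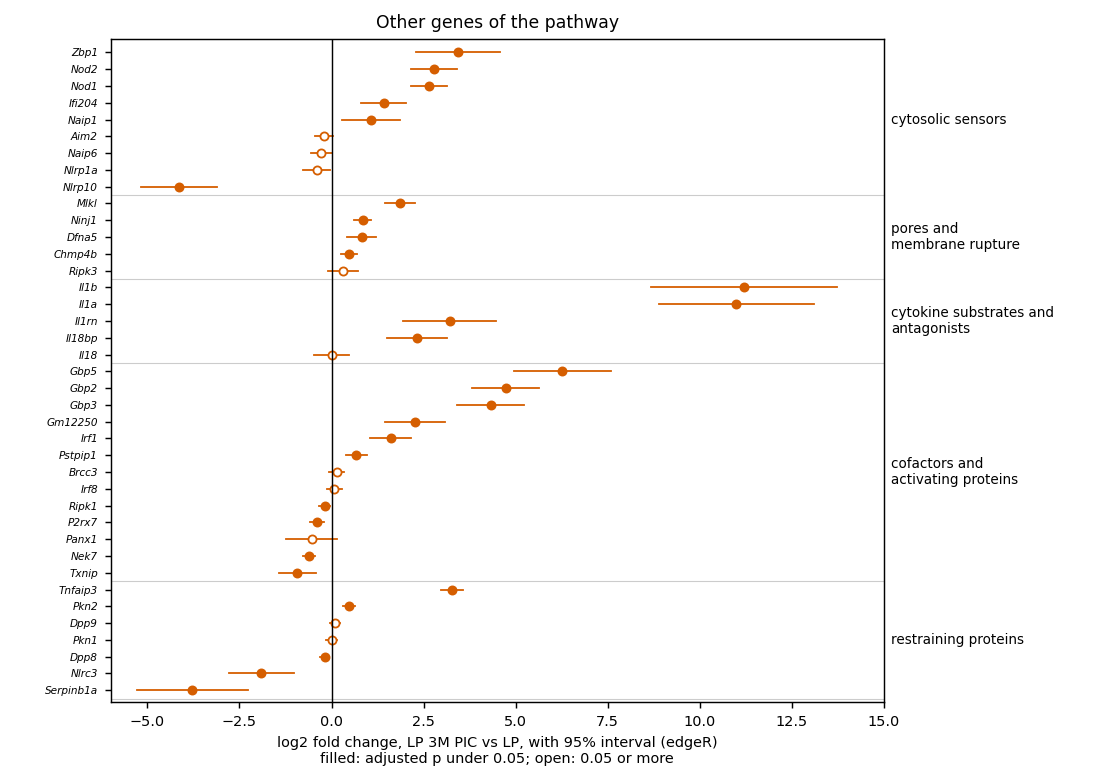
Log2 fold change in LP 3M PIC against LP, with its 95% interval (edgeR), of 39 of the 42 other pathway genes tested, grouped by role, without the caspases. Filled circles have an adjusted p under 0.05 and open ones 0.05 or more. Il1a and Il1b lie farthest to the right, at 10.99 and 11.20, and Nlrp10 farthest to the left, at −4.14.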

How the data were processed

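For each library the authors deposited a table of whole-number read counts by gene symbol, not normalised. Per the submitters' processing notes, the build was GRCm38 and the tools were STAR 2.7.11b, FastQC 0.11.1, DESeq2 1.44.0 and HTSeq 0.13.5. The kit was stranded and poly(A)-enriched, per the labels. The annotation and the strand setting for counting are not stated in these sources. Entries of no gene (reads outside genes 5.94 to 8.58%, reads shared by genes 1.14 to 1.90%) were left out.

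Genes were kept by filterByExpr (minimum count 10, minimum total 15) and scaled by TMM. The two-sided quasi-likelihood F-test of edgeR 4.0.16 (R 4.3.3, robust) was run in 1 model of all 20 libraries with a mean per condition, with Benjamini-Hochberg adjustment over 12132 genes for each of 7 contrasts. The SE is the size of the log2 change over the square root of F. The interaction is the log2 change of LP 3M PIC over LP 3M less that of LP PIC over LP. The script was tested on simulated data. Alternatives were other scalings and filters, DESeq2 1.42.0, the mouse as a block, and left-out mice or libraries. Each mouse gave a library to every condition, so that the numbers pair the samples. The main model had no term for the mouse and so treated the libraries as independent. The fit with the mouse as a block called 6 results of the 10 genes that the main model did not, all given above, and lost none. Deviations of the same mouse correlated by 0.377 on average over 30 pairs of libraries (0.137 to 0.541). Between mice the mean was −0.09 over 120 pairs (−0.404 to 0.375), so that the ranges overlapped. A correlation over 0.1 was found in all 30 pairs of the same mouse and in 29 of the 120 pairs between mice. Each deviation was taken from the mean of its condition, which ties the mean between mice to that of the same mouse. The mean between mice is thus no separate baseline. The members, lists and naming rule (smallest p within each role list, plus the called gene against its direction) were chosen with earlier results of these data known. The 3 other caspase genes tested are in the counts of the 42 pathway genes and are not reported here singly. Floors cover counting error only.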

Additional observations from a re-analysis of the deposited data

Results flagged for a closer look

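In 3 of the 10 genes the effect of adding PIC differed between cells with 3M and cells without it, by edgeR's test of the interaction itself. The log2 change of LP 3M PIC over LP 3M less that of LP PIC over LP was −0.85 for Pycard, −0.68 for Naip2 and −0.53 for Nlrc4 (below 0 in 5 of 5 mice for each). For Pycard, adding PIC gave −0.18 ± 0.10 with 3M and 0.67 ± 0.10 without it. For Naip2 it gave 0.11 ± 0.13 with 3M and 0.80 ± 0.14 without it, and for Nlrc4 0.32 ± 0.09 and 0.85 ± 0.10. The call for Pycard held under all 14 alternatives. That for Naip2 was lost under 6 of the 14 (adjusted p 5.73e-04 to 0.138), and that for Nlrc4 without mouse 1 or mouse 4 (adjusted p 0.00796 to 0.140 over the 14). The reading takes equal amounts of PIC in LP 3M PIC and LP PIC for granted. No library stood apart from the other 4 of its condition in any of the 10 genes by Dixon's criterion (0 of 40 groups). The LP 3M library of mouse 5 came closest for Nlrp1b, with a ratio of 0.707 against the critical 0.71.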

How the results depend on the processing

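The number of the 10 genes called stayed within 1.5 times the reported one under all alternatives for the 6 comparisons between conditions, at 8 to 9 for LP 3M PIC against LP, 7 to 10 for LP 3M against LP and 9 to 10 for LP PIC against LP. DESeq2 size factors, no filter and a stricter filter (1 CPM in 5 libraries) changed no call of the 10 genes. For the interaction, 3 of the 10 genes were called, 5 with DESeq2, 5 with the replicate block by mouse, and 1 to 4 when 1 mouse was left out. Of the 42 pathway genes, 3 had a called interaction, 6 with DESeq2, 7 with the replicate block and 0 to 5 with 1 mouse left out. For LP 3M PIC against LP PIC, 21 pathway genes were called and 13 to 19 with 1 mouse left out, the lowest without mouse 1. Over all genes 1023 interactions were called, 1656 with the block, and 182, 291 and 242 without mouse 1, 2 and 4. The sign turned in 3 estimates that were not called. With a mouse or library left out, Pycard in LP 3M PIC against LP ran from −0.0012 (without mouse 5) to 0.19, Nlrc4 in LP 3M against LP PIC from −0.030 (without mouse 3) to 0.14, and Casp1 in the interaction from −0.27 to 0.00434 (without mouse 4). The causes were not tested. The block changed no member's call beyond the 6 given above. Values near the floor of detection, those of Il1a, Il1b and Mefv in LP and of Nlrp10 and Serpinb1a in LP 3M PIC, limit the sizes of these folds. Serpinb1a was near the floor in LP 3M and LP PIC as well, which also limits its interaction.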

Other observations

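Of the other pathway genes, 7 in the tables were too low to be tested: Nlrp6, Nlrp12, Casp12, Gsdma, Gsdmc, Il1r2 and Trim31. Their highest mean in any condition was 0.389 CPM, for Il1r2 in LP 3M PIC, against 0.0893 CPM in LP. Gsdmc, which encodes a gasdermin better known from epithelial cells, averaged at most 0.0545 CPM, and Gsdma at most 0.0302 CPM. Gsdme, listed under the older symbol Dfna5, encodes another gasdermin and averaged 26.5 ± 3.47 CPM in LP 3M PIC, 22.5 ± 6.01 CPM in LP 3M, 16.7 ± 3.03 CPM in LP PIC and 16.4 ± 3.71 CPM in LP (SD, n = 5). Gsdme rose by 0.82 ± 0.19 in LP 3M PIC (adjusted p = 9.18e-04) and by 0.58 ± 0.19 in LP 3M (adjusted p = 0.0191), and differed by 0.08 ± 0.19 in LP PIC (adjusted p = 0.761), each against LP. Aim2, whose product senses DNA in the cytosol, averaged 36.1 ± 4.75 CPM in LP 3M PIC, 30.7 ± 4.21 CPM in LP 3M, 63.9 ± 13.5 CPM in LP PIC and 44.9 ± 2.31 CPM in LP. It fell by 0.44 ± 0.12 in LP 3M (adjusted p = 0.00705) and rose by 0.55 ± 0.12 in LP PIC (adjusted p = 9.66e-04), both against LP. Gsdme and Aim2 were chosen for description after their values were seen.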
